A study of Homo sapiens with 6 samples.

Results

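The SLC25 family is the largest group of transport proteins in the inner membrane of human mitochondria. The members described here are the genes of the count table whose name is SLC25A followed by a number and nothing else. The rule found 48 genes among 58735 features, and 42 of them had enough counts to enter the test, which covered 16210 genes. Members of the same family that carry other names (UCP1, UCP2, UCP3, MTCH1 and MTCH2) fall outside the rule and are treated only as a companion list.

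The series asked what a shortage of ACSS2, the enzyme of nucleus and cytosol that makes acetyl-CoA from acetate, does to the transcriptome of BE(2)-C cells, a human neuroblastoma line. RNA sequencing covered 3 libraries of cells with a lentiviral hairpin against ACSS2 (shACSS2, labelled ACSS2 deficiency) and 3 libraries of cells with a non-silencing hairpin (NS, labelled wild type). Cells of both groups went through lentiviral infection and puromycin selection as stable lines and grew in DMEM with calf serum and antibiotics. The titles write the knockdown as siACSS2 and the treatment text also names a line shNgBR, and neither the sequence nor the number of hairpins, clones or separate cultures is given in the sources used here. P-values therefore measure the spread between these libraries, which may be technical.

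Mitochondrial carriers are small membrane proteins that mostly exchange a solute of the matrix for a solute of the space outside the inner membrane. They bring in ADP, phosphate, cofactors and fuel molecules, and they let out ATP and citrate. Citrate that leaves through SLC25A1 is split in the cytosol into oxaloacetate and acetyl-CoA, the product that ACSS2 makes from acetate. The carriers are encoded in the nucleus and made in the cytosol, and those of the mitochondrial inner membrane are mostly inserted through the TIM22 complex.

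Totals of the shACSS2 libraries ran from 16617885 to 18133801 counts and those of the NS libraries from 17073662 to 20831599. ACSS2 itself stood at 75, 84 and 110 counts in shACSS2 and at 366, 387 and 438 counts in NS (log2 ratio, the log2 fold change of shACSS2 over NS, −1.94, SE 0.145; edgeR quasi-likelihood test with Benjamini-Hochberg adjustment, adjusted p = 1.95e-06; exact two-sided permutation p = 0.1, the smallest possible with 3 against 3). Of 10 markers of adrenergic neuroblastoma, 5 had a mean of at least 1 CPM (counts scaled to library size), and PHOX2A and TH had 0 counts in every library. Of these 5, ISL1 rose (log2 ratio 0.51, SE 0.128, edgeR adjusted p = 0.0138). CHGA and MYCN fell at low levels (−1.68, SE 0.381, and −1.14, SE 0.370, edgeR adjusted p = 0.00798 and 0.0448). MYCN had 0.787 ± 0.308 CPM in shACSS2 and 1.75 ± 0.313 CPM in NS (SD, n = 3 each). An adjusted p under 0.05 in either direction was reached by 60% of these 5 markers and by 17.1% of all genes tested. The part of these markers in the results below was not tested. Replicate 1 of shACSS2 stood apart from replicates 2 and 3. Its deviation from the group mean correlated across genes with GC content at a Spearman coefficient of −0.60, a description over 16201 genes that share a library. The coefficients were 0.47 and 0.39 in replicates 2 and 3. The deviations of a group sum to 0 for each gene, so these values are not independent of that of replicate 1. Genes of the mitochondrial genome took 0.692% to 0.775% of counts in shACSS2 and 1.25% to 2.20% in NS. With these genes left out of the fit, 7 carriers were higher and 0 lower, as with them.

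Of the 42 tested carriers, 7 rose and 0 fell in shACSS2, and 35 did not pass the test (edgeR quasi-likelihood test, adjusted p of 0.05 over all genes). Of the 7 that rose, 6 are described here: SLC25A33, SLC25A22, SLC25A26, SLC25A3, SLC25A5 and SLC25A6, which carry pyrimidine nucleotides, glutamate, S-adenosylmethionine, phosphate and, for the last pair, ADP and ATP. The log2 ratios of these 6 were small, between 0.30 and 0.53. Over all genes, 17.1% passed the test in either direction, 7.48% higher and 9.64% lower. The share of carriers past the test in either direction was 16.7%, close to that of all genes, and all of it was higher. The median log2 ratio was 0.032 over the 42 carriers and 0.0025 over all genes tested, and 24 carriers had a positive and 18 a negative value. For 16 carriers the ranges of the groups were separate, 12 of them higher and 4 lower in shACSS2, and 36.3% of all genes tested had no overlap. In bulk libraries a change of transcript per cell and a change in the share of cells that make it cannot be told apart.

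The count of carriers past the test moved with single libraries. It was 8 higher and 3 lower without shACSS2 replicate 1, 3 and 0 without shACSS2 replicate 2, and 4 and 0 without shACSS2 replicate 3. It was 2 and 0 without NS replicate 1. Leaving out NS replicate 2 gave 5 and 2, and leaving out NS replicate 3 gave 1 and 0. When libraries were scaled by their totals alone, 5 carriers were higher and 3 lower, and the share of higher genes among all genes past the test was 25.8%, against 43.7% with TMM factors, which correct for composition.

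**Figure D1:**
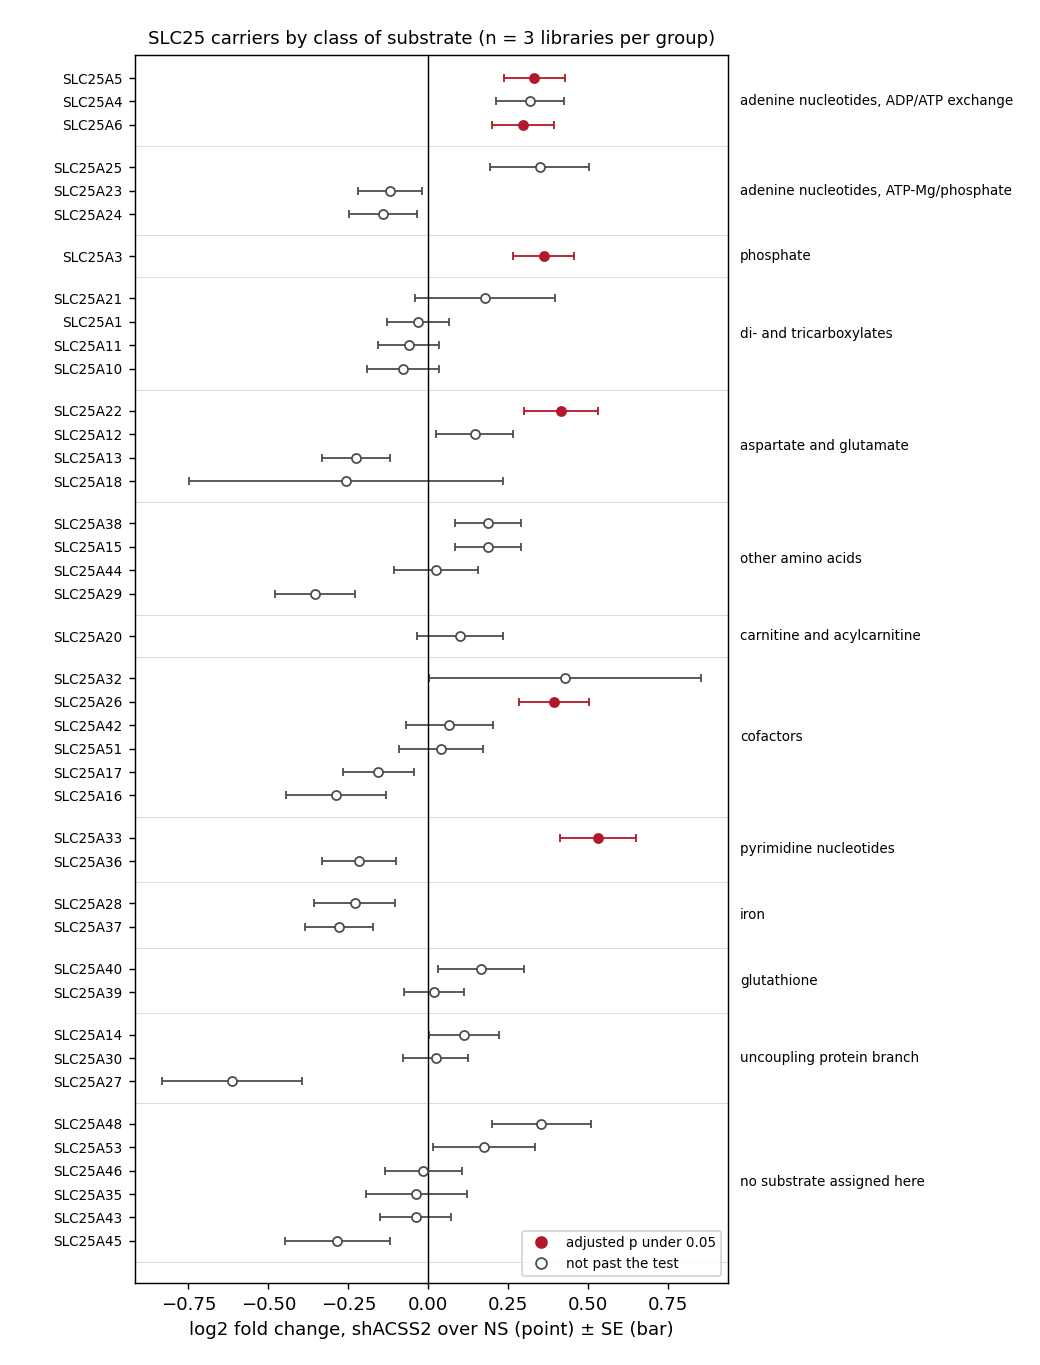
Log2 ratio of 41 of the 42 tested carriers (x axis, shACSS2 over NS, with SE bars), grouped down the page by class of substrate. Filled red points are 6 carriers past the test, all on the positive side, and open points are the 35 that did not pass.

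Of the 5 carriers that serve the phosphorylation of ADP, 3 rose, 1 did not pass and 1 was not tested. The 3 that rose are among 8 carriers that averaged 100 CPM or more, and the other 5 did not pass. Of the 2209 tested genes at that level, 16.5% rose and 26.2% passed in either direction, against 7.48% and 17.1% of all genes tested. The median log2 ratio of these 2209 genes was 0.077. The part of expression level in these rises was not tested. The ADP/ATP carriers are SLC25A5, SLC25A6, SLC25A4 and SLC25A31, which bring ADP into the matrix and let newly made ATP out, and SLC25A3 brings in the phosphate. SLC25A5 (ENSG00000005022, chromosome X, 119468400 to 119471319, plus strand, GRCh38) had 1627, 1530 and 1556 CPM in shACSS2, against 1160, 1399 and 1188 CPM in NS. Every shACSS2 library was above every NS library, with means of 1571 ± 50.3 and 1249 ± 131 CPM (SD, n = 3 each; log2 ratio 0.33, SE 0.0955; edgeR adjusted p = 0.0272). SLC25A6 (ENSG00000169100, chromosome X, 1386152 to 1392724, minus strand) had 741, 905 and 876 CPM in shACSS2, against 664, 701 and 691 CPM in NS. Its groups did not overlap either, and shACSS2 replicate 1 was the lowest of its group (means 841 ± 87.7 and 685 ± 19.2 CPM, SD, n = 3 each; log2 ratio 0.30, SE 0.0964; edgeR adjusted p = 0.046).

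SLC25A4, the ADP/ATP carrier best known from heart and muscle, had 81.1, 73.9 and 65.7 CPM in shACSS2, against 61.2, 61.8 and 54.1 CPM in NS. The groups did not overlap, yet it missed the threshold at a log2 ratio of 0.32 (SE 0.107; edgeR adjusted p = 0.0511), and 6 of 17 alternatives put it past the test (adjusted p from 0.0136 to 0.215). SLC25A31, the ADP/ATP carrier of germ cells, had 1 count in NS replicate 1 and 0 in the other libraries and was not tested. SLC25A3 (ENSG00000075415, chromosome 12, 98593591 to 98606379, plus strand) had 698, 616 and 614 CPM in shACSS2, against 482, 547 and 473 CPM in NS. All 3 shACSS2 values were above the NS values (means 643 ± 48.2 and 501 ± 40.4 CPM, SD, n = 3 each; log2 ratio 0.36, SE 0.0964; edgeR adjusted p = 0.0187). Together the ADP/ATP carriers held 51.1 ± 1.00% of all SLC25 counts in shACSS2 and 47.0 ± 1.06% in NS (SD, n = 3 each).

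Several of these calls ended when a library was left out, while the log2 ratios stayed positive. Over the 6 fits that left out a library, they ran from 0.30 to 0.43 for SLC25A3, from 0.28 to 0.42 for SLC25A5 and from 0.24 to 0.38 for SLC25A6. The call of SLC25A3 ended without NS replicate 1 or NS replicate 3 (edgeR adjusted p = 0.116 and 0.0951, range over alternatives 0.0012 to 0.116). That of SLC25A5 ended without shACSS2 replicate 2 or 3 and without NS replicate 1 or 3 (adjusted p from 0.0581 to 0.166, range over alternatives 0.00657 to 0.166). The call of SLC25A6 held only without shACSS2 replicate 1 among the fits that left out a library, and ended in the other 5 (adjusted p from 0.0587 to 0.196) and with library totals (adjusted p = 0.108). Its smallest adjusted p over the alternatives was 0.00194.

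**Figure D2:**
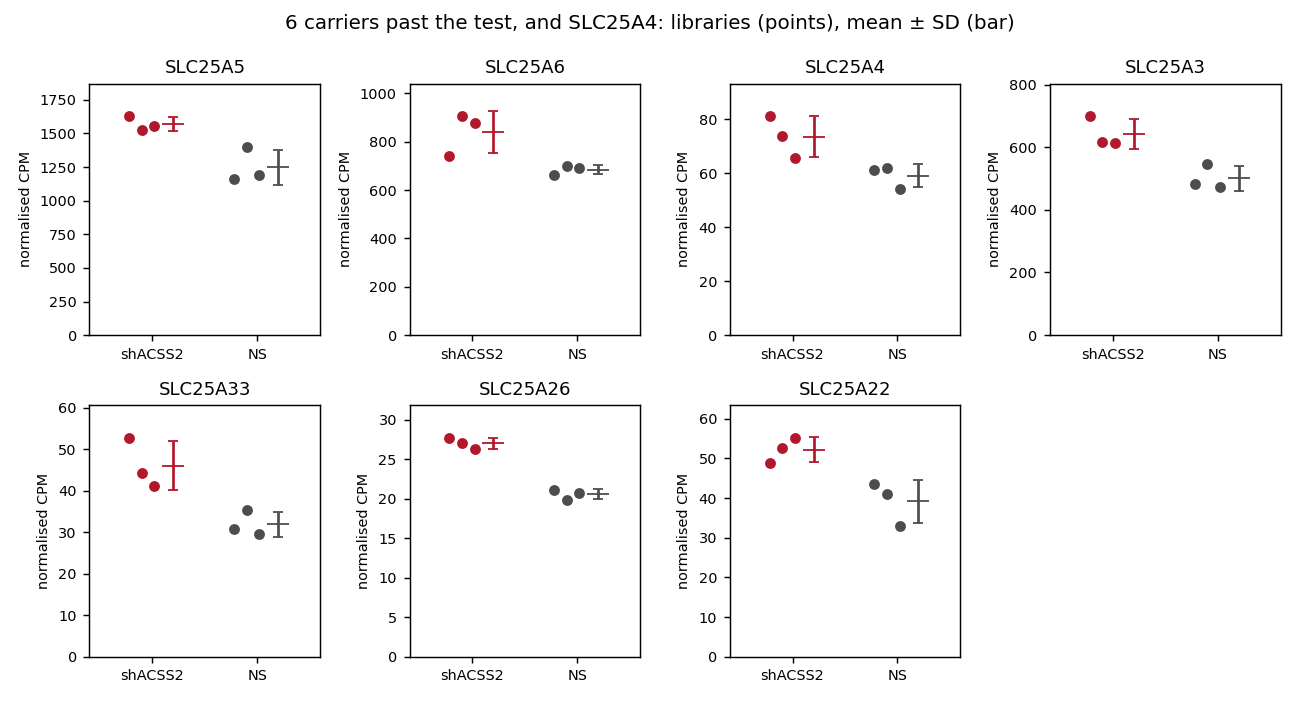
Normalised CPM of 6 carriers past the test and of SLC25A4 in each library (points), with mean ± SD (bars), shACSS2 left and NS right, axes from 0. In each of the 7 panels the 3 shACSS2 points lie above the 3 NS points.

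SLC25A33 (ENSG00000171612, chromosome 1, 9539482 to 9585179, plus strand), a carrier of pyrimidine nucleotides, had 52.7, 44.3 and 41.2 CPM in shACSS2, against 30.7, 35.3 and 29.6 CPM in NS. The groups did not overlap (log2 ratio 0.53, SE 0.119; edgeR adjusted p = 0.00754), and the call ended without NS replicate 1 or NS replicate 3 (adjusted p = 0.0542 and 0.0508; smallest over the alternatives 0.000378).

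SLC25A26 (ENSG00000144741, chromosome 3, 66133610 to 66388116, plus strand) brings S-adenosylmethionine, the methyl donor, into the matrix. It had 27.6, 27.1 and 26.3 CPM in shACSS2, against 21.1, 19.9 and 20.7 CPM in NS. The groups were well apart (log2 ratio 0.39, SE 0.109; edgeR adjusted p = 0.0229), but the call held only without shACSS2 replicate 1 among the fits that left out a library (adjusted p from 0.0511 to 0.092 in the other 5) and ended with library totals (adjusted p = 0.0594). Its smallest adjusted p over the alternatives was 0.0023. SLC25A22 (ENSG00000177542, chromosome 11, 790475 to 798333, minus strand), which moves glutamate together with a proton, had 48.8, 52.5 and 55.1 CPM in shACSS2, against 43.4, 41.1 and 33.1 CPM in NS. NS replicate 3 was the lowest library (log2 ratio 0.41, SE 0.116; edgeR adjusted p = 0.0236). The call ended without NS replicate 3 (adjusted p = 0.143) and without shACSS2 replicate 2 or 3 (adjusted p = 0.0517 and 0.0811), and its smallest adjusted p over the alternatives was 0.00299.

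**Figure D3:**
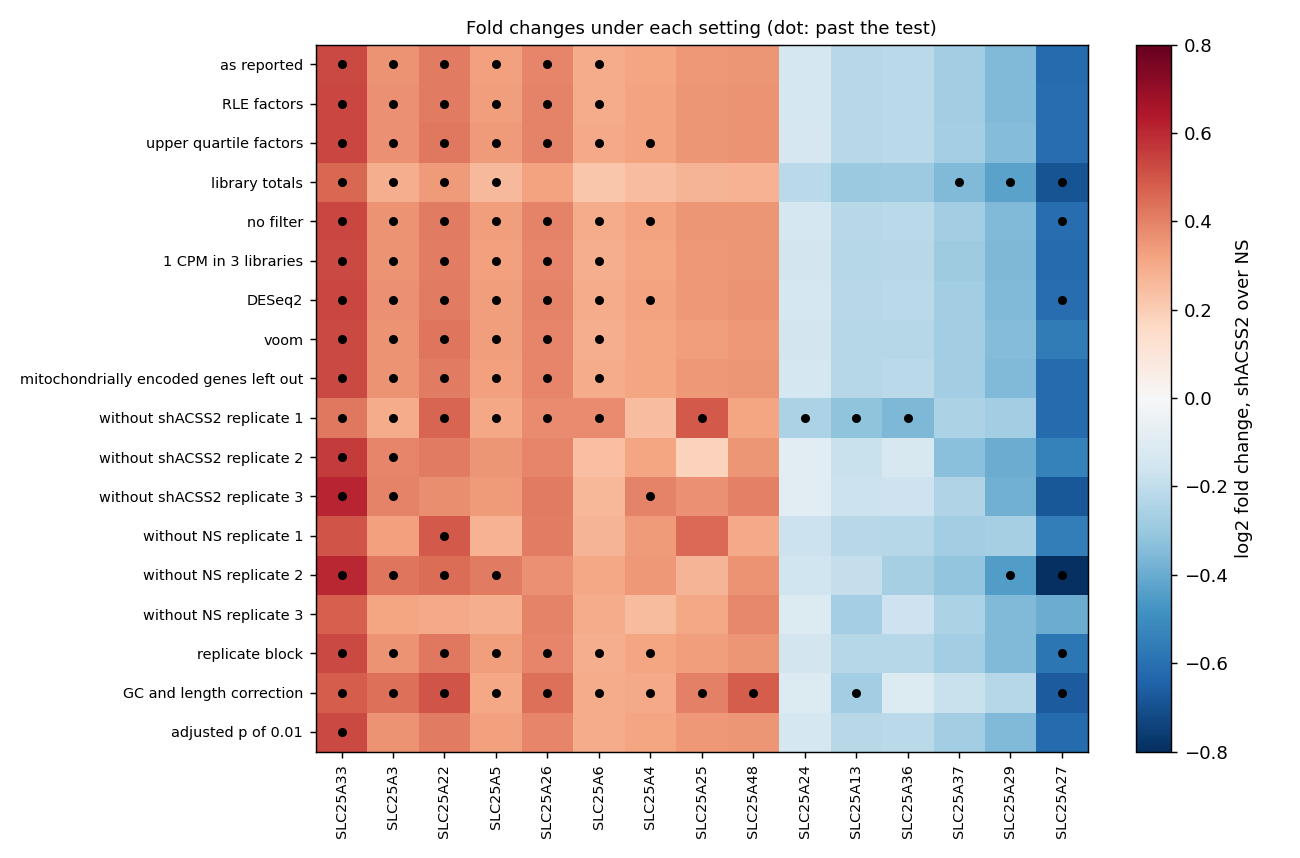
Log2 ratio (colour, shACSS2 over NS) of 15 carriers (columns) under the reported fit and 17 alternatives (rows), a dot marking values past the test. Each of the 6 rises shown lacks its dot in 2 or more rows that leave out a library, and the carriers on the right have dots in few rows.

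The carriers of di- and tricarboxylates did not pass the test, with 4 of 4 tested and none called. SLC25A1, the citrate carrier, had 175, 214 and 200.5 CPM in shACSS2, against 196, 207 and 200.2 CPM in NS. The shACSS2 values spanned all of the NS values (log2 ratio −0.03, SE 0.0967; edgeR adjusted p = 0.853). SLC25A11, which exchanges malate for 2-oxoglutarate, had 142, 151 and 146 CPM in shACSS2, against 150, 167 and 142 CPM in NS, and the groups overlapped (log2 ratio −0.06, SE 0.0949). SLC25A10, which exchanges dicarboxylates such as malate and succinate for phosphate, had 21.7, 24.3 and 21.8 CPM in shACSS2, against 24.4, 23.7 and 23.4 CPM in NS. These groups overlapped through shACSS2 replicate 2 (log2 ratio −0.08, SE 0.112). SLC25A21, the carrier of 2-oxoadipate and related acids, was at most 6.16 CPM (log2 ratio 0.18, SE 0.219).

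Among the carriers of aspartate and glutamate, SLC25A22 was the member of 4 that passed. SLC25A12 and SLC25A13 exchange aspartate of the matrix for glutamate and so serve the malate-aspartate shuttle. SLC25A12 had 33.8, 25.7 and 28.4 CPM in shACSS2, against 26.5, 26.8 and 26.3 CPM in NS, and shACSS2 replicate 1 was the highest library (log2 ratio 0.14, SE 0.119; edgeR adjusted p = 0.429). SLC25A13 had 70.2, 57.9 and 57.5 CPM in shACSS2, against 72.6, 76.1 and 68.0 CPM in NS. It overlapped NS only through shACSS2 replicate 1 (log2 ratio −0.22, SE 0.106; edgeR adjusted p = 0.154), and without that library it was called lower at −0.32 (adjusted p = 0.00969, range over alternatives 0.00969 to 0.397). SLC25A18, the second glutamate carrier, was close to undetected at 5 to 19 counts a library.

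Of the other amino acid carriers, none of 4 tested passed. SLC25A29, a carrier of basic amino acids, had 20.2, 24.1 and 23.6 CPM in shACSS2, against 32.6, 25.3 and 29.05 CPM in NS. The groups did not overlap and the value missed the threshold (log2 ratio −0.35, SE 0.125; edgeR adjusted p = 0.0619), while it was called lower without NS replicate 2 (adjusted p = 0.0403) and with library totals (adjusted p = 0.0312), in a range over alternatives up to 0.283. SLC25A38, a glycine carrier needed for heme synthesis, and SLC25A15, the ornithine carrier of the urea cycle, both had log2 ratios of 0.19 (SE 0.102 and 0.103). SLC25A44, a carrier of branched-chain amino acids, stood at 0.02 (SE 0.131).

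SLC25A20, which exchanges acylcarnitine for carnitine in fatty acid oxidation, had 16.9, 13.6 and 14.3 CPM in shACSS2, against 13.04, 15.1 and 13.6 CPM in NS. The groups overlapped, with shACSS2 replicate 1 highest (log2 ratio 0.10, SE 0.136; edgeR adjusted p = 0.658). The mitoferrins bring iron into the matrix for heme and iron-sulfur clusters. SLC25A37 had 28.8, 32.3 and 28.3 CPM in shACSS2, against 36.6, 34.4 and 37.5 CPM in NS. The groups did not overlap, and the value did not pass (log2 ratio −0.28, SE 0.107; edgeR adjusted p = 0.0828) except with library totals (adjusted p = 0.0358; range over alternatives up to 0.240). SLC25A28 had 13.6, 15.6 and 13.7 CPM in shACSS2, against 17.9, 16.0 and 16.5 CPM in NS, again with no overlap and no call (log2 ratio −0.23, SE 0.127; edgeR adjusted p = 0.224).

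**Figure D4:**
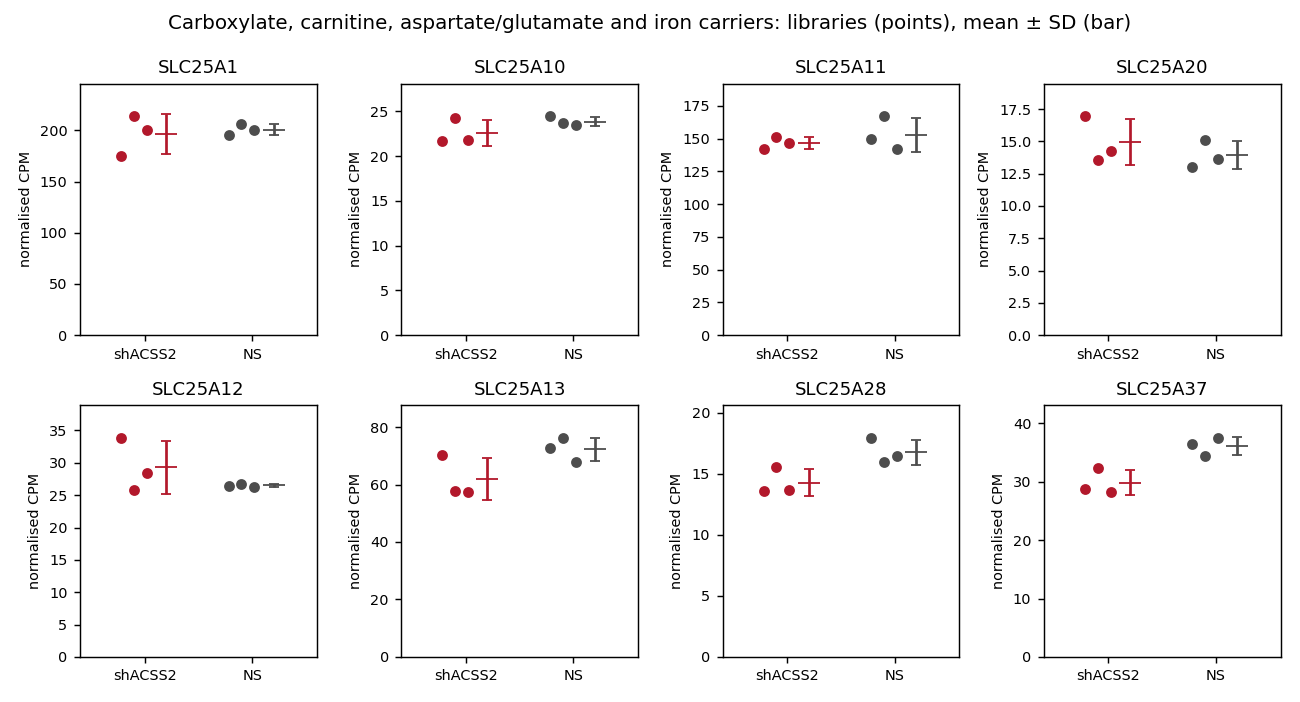
Normalised CPM of 8 carriers that did not pass the test, in each library (points) with mean ± SD (bars), shACSS2 left and NS right, axes from 0. The groups overlap for the carboxylate, carnitine and aspartate/glutamate carriers, and for the mitoferrins SLC25A28 and SLC25A37 the 3 shACSS2 points lie below the 3 NS points.

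The remaining adenine nucleotide carriers exchange ATP-Mg for phosphate under the control of calcium. SLC25A23 and SLC25A24 had log2 ratios of −0.12 (SE 0.101) and −0.14 (SE 0.106). SLC25A25 had one of 0.35 (SE 0.156; edgeR adjusted p = 0.133) and overlapping groups, with 16.1, 24.8 and 19.9 CPM in shACSS2, against 18.3, 14.3 and 15.2 CPM in NS. Without shACSS2 replicate 1, SLC25A24 was called lower at −0.25 (adjusted p = 0.0231) and SLC25A25 higher at 0.49 (adjusted p = 0.0155). Over all alternatives, the adjusted p of SLC25A24 reached 0.707 and that of SLC25A25 0.484. SLC25A41, a shorter relative, had at most 3 counts in a library and was not tested.

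Besides SLC25A26, the cofactor class has 5 tested members that did not pass. SLC25A16 and SLC25A42, linked to coenzyme A, had log2 ratios of −0.29 (SE 0.156) and 0.07 (SE 0.135). SLC25A17, a peroxisomal carrier of cofactors, stood at −0.16 (SE 0.11) and SLC25A51, which brings NAD into the matrix, at 0.04 (SE 0.131). SLC25A32, the carrier of folate and FAD, had 9 to 13 counts a library. Its groups did not overlap, and its log2 ratio was 0.43 (SE 0.425, edgeR adjusted p = 0.523). Of its annotated exon bases, 80.8% are shared with other genes, so that reads from it can be lost or counted elsewhere. The gene that shares most of them, AC012213.5, had a mean of 0.0494 CPM. SLC25A36, the other carrier of pyrimidine nucleotides, had 112, 82.1 and 87.8 CPM in shACSS2, against 108, 102 and 117 CPM in NS. It overlapped NS through shACSS2 replicate 1 (log2 ratio −0.22, SE 0.116; edgeR adjusted p = 0.209), and without that library it was called lower at −0.36 (adjusted p = 0.00421, range over alternatives up to 0.550).

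Members of the uncoupling protein branch did not pass the test. SLC25A27 had 6.10, 5.44 and 6.61 CPM in shACSS2, against 10.1, 5.86 and 11.8 CPM in NS. NS replicate 2 was as low as the shACSS2 libraries, and the log2 ratio of −0.61 (SE 0.218) was the lowest of all carriers, at an edgeR adjusted p of 0.0636. It was called lower in 6 of 17 alternatives, at −0.86 without NS replicate 2 (adjusted p = 0.0084; range over alternatives 0.0084 to 0.312). SLC25A14 and SLC25A30 stood at 0.11 (SE 0.109) and 0.02 (SE 0.102). The glutathione carrier SLC25A39 had a log2 ratio of 0.02 (SE 0.0948) at 227 ± 20.02 CPM in shACSS2 and 225 ± 7.25 CPM in NS (SD, n = 3 each), and its relative SLC25A40 had one of 0.17 (SE 0.134).

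Of 8 carriers to which no substrate is assigned here, 6 were tested and none passed. SLC25A48 was the highest at a log2 ratio of 0.35 (SE 0.153; edgeR adjusted p = 0.12) with no overlap, at 8.79 ± 0.527 CPM in shACSS2 and 6.87 ± 0.391 CPM in NS (SD, n = 3 each), and it was called higher with the GC and length correction (0.48; edgeR adjusted p = 0.025). SLC25A45 was the lowest at −0.28 (SE 0.164), also with no overlap. SLC25A53, SLC25A46, SLC25A35 and SLC25A43 lay between 0.17 and −0.04. The 6 members that were not tested, SLC25A2, SLC25A31, SLC25A34, SLC25A41, SLC25A47 and SLC25A52, had at most 6 counts in any library. A count of 0 in a library allows up to 0.144 to 0.181 CPM (3 counts over the library total without its TMM factor, counting error only).

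Levels per kilobase of annotated exon ordered the carriers over several orders of magnitude. SLC25A5 was first with 1047 ± 33.5 CPM per kilobase in shACSS2 and 833 ± 87.1 in NS, and SLC25A6 second with 388 ± 40.5 in shACSS2 and 317 ± 8.87 in NS (SD, n = 3 each). SLC25A1 came next with 93.7 ± 9.32 in shACSS2 and 95.9 ± 2.56 in NS. After it stood SLC25A3, SLC25A39 and SLC25A11 in shACSS2 (72.2 ± 5.42, 64.5 ± 5.68 and 54.9 ± 1.77), and SLC25A39, SLC25A11 and SLC25A3 in NS (63.7 ± 2.06, 57.2 ± 4.77 and 56.3 ± 4.54). The NS levels of neighbours in this last order overlapped, as did those of SLC25A3 and SLC25A39 in shACSS2, so the order of these neighbours is not beyond the spread. The first 3 kept their ranks when the longest annotated transcript was used in place of all exons. Both lengths come from the annotation, and the forms that the cells make were not examined, so the order depends on annotated length. SLC25A3 has 8896 annotated exon bases and a longest transcript of 6087, against 2096 and 1648 for SLC25A1. Without division by length, SLC25A3 was the higher of this pair, at means of 643 against 196 CPM in shACSS2 and 501 against 201 CPM in NS. Within the ADP/ATP carriers, per kilobase, SLC25A5 made up 72.2 ± 2.61% in shACSS2 and 71.6 ± 1.63% in NS, and SLC25A6 26.8 ± 2.69% and 27.3 ± 1.60% (SD, n = 3 each), so their proportions differed by less than the spread.

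**Figure D5:**
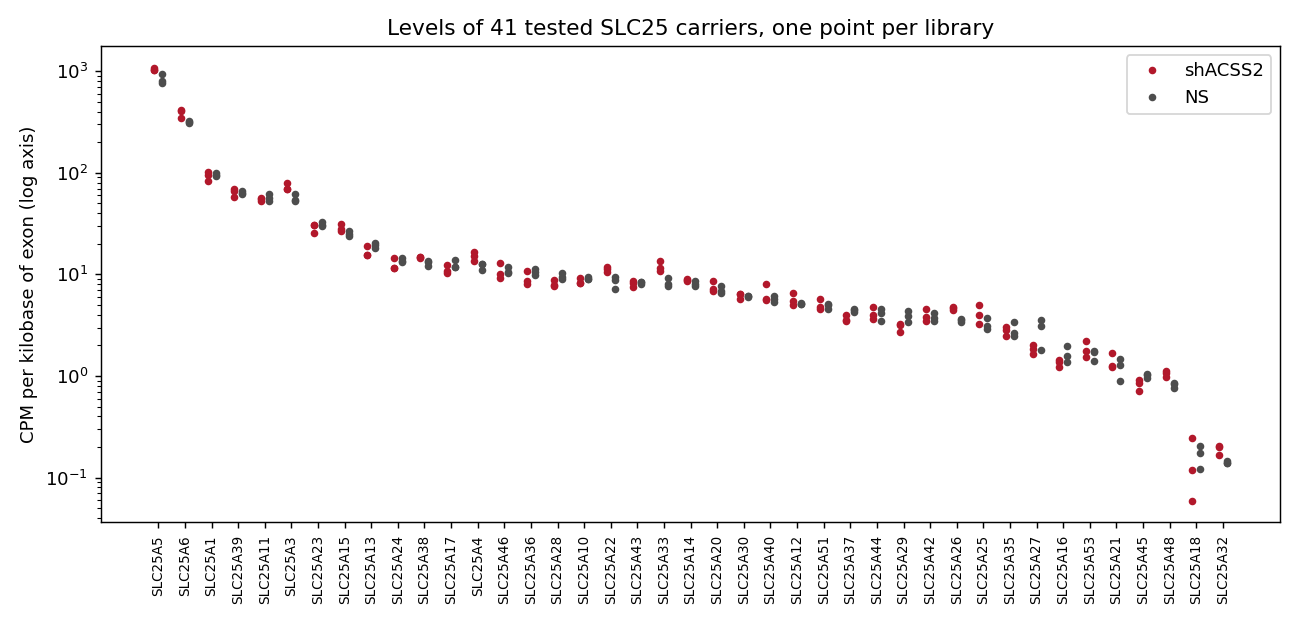
Levels of 41 of the 42 tested carriers in CPM per kilobase of annotated exon (log axis), ordered by the NS mean, with a point for each library. SLC25A5 and SLC25A6 stand above all others, and SLC25A18 and SLC25A32 are lowest.

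In these libraries, genes whose annotated 3′ UTR (the transcript after the stop codon) holds ATGCTCA or TGCTCAA were lower in shACSS2 more often than others. That sequence had been picked from the same fold changes, so its presence is given as a description. Over genes with 50 or more annotated bases there, 43.9% of 1312 that fell held it, against 6.75% of 1111 that rose and 16.0% of 10839 that did not pass. Lengths of the 3′ UTR were not compared between these groups, and the part of length in this contrast was not tested. Among the 42 tested carriers 8 held it (19.0%, against 18.0% of all 13262 genes with such a 3′ UTR), namely SLC25A16, SLC25A17, SLC25A20, SLC25A33, SLC25A36, SLC25A37, SLC25A48 and SLC25A53. Their median log2 ratio was −0.03, and it was 0.032 in the 34 without it. Of the 8, SLC25A33 rose and 7 did not pass. Of all 2381 tested genes that held it, 75 rose (3.15%), 576 fell and 1730 did not pass, with 27.3% past the test in either direction. Over all tested genes with such a 3′ UTR, the median log2 ratio was −0.157 with the sequence and 0.047 without it.

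Both pyrimidine nucleotide carriers hold a match although their log2 ratios were 0.53 and −0.22, and SLC25A17 holds the longest match of the family. These sites are shown as they stand in the GENCODE v29 transcripts, 5′ to 3′, with the match in capitals. Whether the cells make the annotated form was not examined. The site of SLC25A33 lies at chr1:9582786-9582812 (plus strand), that of SLC25A36 at chr3:140978183-140978209 (plus strand), that of SLC25A16 at chr10:68482681-68482707 (minus strand) and that of SLC25A17 at chr22:40770789-40770816 (minus strand), all on GRCh38 and in the 3′ UTR.
SLC25A33: gtcctcttttATGCTCActatactatg
SLC25A36: gtttttgaggTGCTCAAttggaataaa
SLC25A16: gactaagtctTGCTCAAatgttattat
SLC25A17: aattccgaagATGCTCAAgagggaggtt

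Counting without a stated strand setting leaves some carriers open to reads of neighbours, and 21 of the 48 share exon bases with another annotated gene. SLC25A5 shares 227 bases with the antisense gene SLC25A5-AS1, which fell at 1.78 ± 0.368 CPM in shACSS2 and 3.61 ± 0.756 CPM in NS (SD, n = 3 each; log2 ratio −1.02, SE 0.260; edgeR adjusted p = 0.0148), the opposite direction to SLC25A5. SLC25A25 shares 665 bases with SLC25A25-AS1, which also fell (log2 ratio −0.67, SE 0.204; edgeR adjusted p = 0.0343). SLC25A26 shares 907 bases with LRIG1 on the opposite strand, whose log2 ratio was −0.03 (SE 0.106). Processed pseudogenes took few counts, 26 over 9 pseudogenes of SLC25A5 and 12 over 6 of SLC25A6, but reads that match a gene and its pseudogenes may have been dropped. SLC25A6 lies in a region that X and Y share, so its reads can also match a second copy.

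The companion lists cover genes that work beside the carriers. Of all genes tested, 17.1% passed the test in either direction, 7.48% higher and 9.64% lower. The share was 66.7% in the family members under other names and in the VDAC channels, with only 3 genes tested in each. It was 13.3% in the genes that import carriers. No list was tested as a set. Of the family members under other names, 2 of 3 tested fell, UCP2, an uncoupling protein, at −0.38 (SE 0.114) and MTCH1, an outer membrane protein, at −0.33 (SE 0.1), and both calls ended in 4 of the 6 fits without a library (edgeR adjusted p up to 0.135 and 0.126). Of the VDAC channels, through which metabolites cross the outer membrane, 2 of 3 rose. VDAC1 stood at 509 ± 33.7 CPM in shACSS2 and 361 ± 17.2 CPM in NS (SD, n = 3 each; log2 ratio 0.50, SE 0.092; edgeR adjusted p = 0.00236) and was called in all 17 alternatives. VDAC2 had a log2 ratio of 0.40 (SE 0.0916) and lost its call without NS replicate 1 (edgeR adjusted p = 0.0819). Of 15 tested genes that import carriers, TIMM9, a chaperone of the intermembrane space, rose at 0.44 (SE 0.141), and TOMM22, a receptor subunit of the outer membrane, fell at −0.53 (SE 0.109). TIMM9 lost its call in 4 of the 6 fits without a library (edgeR adjusted p up to 0.196), and TOMM22 kept its call in all 17 alternatives.

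Among 16 other inner membrane transporters, which include the pyruvate carrier genes MPC1 and MPC2 and the calcium uniporter gene MCU, 0 rose and 1 fell, the ABC transporter ABCB8 at −0.39 (SE 0.0986). Its call ended without NS replicate 1 or 3 (edgeR adjusted p up to 0.0851) and with the GC and length correction. Of 12 partner enzymes of the shuttles and of citrate export, ME1, the cytosolic malic enzyme, rose at 0.50 (SE 0.11; edgeR adjusted p = 0.00671) and CS, citrate synthase, fell at −0.38 (SE 0.0902; edgeR adjusted p = 0.0107), which lost its call without NS replicate 1 or 3. The call of ME1 held in all 17 alternatives. Of 5 carnitine enzymes, CPT1A and CPT1B, which load fatty acids onto carnitine, fell at −0.32 (SE 0.0997) and −1.13 (SE 0.366), CPT1B from a low level (0.817 ± 0.251 CPM in shACSS2 and 1.81 ± 0.525 CPM in NS, SD, n = 3 each). Each of these calls ended in 4 of the 6 fits without a library (edgeR adjusted p up to 0.159 and 0.214). The share past the test was 6.25% of the other inner membrane transporters, 16.7% of the partner enzymes and 40% of the carnitine enzymes. Of all genes tested, it was 17.1%.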

How the data were processed

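RNA sequencing counts of 6 libraries were analysed, 3 shACSS2 and 3 NS. The deposited table holds raw read counts per gene, which the authors had not normalised, and no other column was used. Per the submitters' processing notes, fastp, HISAT2 2.0.5, featureCounts 1.5.0-p3, DESeq2 (given as 4.3.1) and hg19 were named, while no source used here gives the settings for strand or multiply matching reads. All 58735 gene identifiers were found in GENCODE v29, an annotation of GRCh38, which gave positions, lengths, GC content and 3′ UTRs, so the build of the alignment is uncertain. The longest 3′ UTR among basic protein-coding transcripts with an annotated stop codon was used.

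Differential expression was tested over 16210 genes with edgeR 4.0.16 in R 4.3.3 (filterByExpr, TMM scaling, a robust quasi-likelihood fit on group alone), with p-values adjusted by Benjamini-Hochberg and called at 0.05. CPM are TMM-normalised, and each SE is the log2 ratio divided by √F. Genes past the test are those said to have risen or fallen. Every library differed from its replicates beyond sampling noise (chi-square per degree of freedom from 4.28 to 17.3) and counted as a replicate. Alternatives changed the scaling (to library totals, RLE or upper quartile) and the filter (none, 1 CPM in 3 libraries), DESeq2 1.42.0, limma voom 3.58.1, an adjusted p of 0.01, no mitochondrially encoded genes, each library left out and the replicate number as a block. A correction for GC content and length was added after the data were seen. The fits were tested on simulated data. The members and all lists were chosen with earlier results of these data known. The named carriers are those past the test and 13 chosen by substrate, and SLC25A3, SLC25A5 and SLC25A6 belong to both. A carrier and a marker gene are counted but not reported here. SLC25A25, SLC25A27, SLC25A29 and SLC25A36 are given library by library outside that rule, chosen after their values were seen. Python 3.11.15, pandas 2.3.3 and matplotlib 3.10.9 were used for the rest.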

Additional observations from a re-analysis of the deposited data

How the results depend on the processing

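The carrier counts reported are 7 higher and 0 lower, of 2776 genes past the test. Lower carriers numbered 3 with library totals, 1 without a filter, 1 with DESeq2, 1 with the replicate block and 2 with the GC and length correction, which was chosen after the data were seen. At an adjusted p of 0.01 there were 2 higher carriers among 1010 genes, and the GC and length correction gave 10 higher carriers among 4553 genes, 61.3% of them higher. The median log2 ratio with library totals was −0.040 over carriers and −0.070 over all genes, against 0.032 and 0.0025 as reported. Leaving out a library gave 1 to 8 higher carriers, 0 to 3 lower ones, a median from 0.011 to 0.10 and 1018 to 3931 genes. The 7 reported carriers were all among those called with the replicate block, whose replicate numbers did not pair the libraries (correlations of deviations of −0.043, −0.066 and 0.11 for equal numbers, up to 0.16 for unequal ones). Of 712 values of tested carriers under the alternatives, 636 kept direction and call, 28 lost the call, 22 gained one and 26 changed sign.

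The changes of sign were in 12 carriers that had not passed the test. Library totals, which shift every gene by about the same amount, gave −0.054 for SLC25A39, −0.047 for SLC25A44, −0.050 for SLC25A30, −0.0070 for SLC25A42 and −0.033 for SLC25A51. The GC and length correction gave 0.065 for SLC25A46 and 0.0031 for SLC25A35. Leaving out a library gave ranges of −0.032 to 0.089 for SLC25A39, −0.089 to 0.12 for SLC25A44, −0.0098 to 0.082 for SLC25A30, −0.048 to 0.15 for SLC25A42 and −0.062 to 0.11 for SLC25A51. The ranges were −0.094 to 0.046 for SLC25A1, −0.013 to 0.26 for SLC25A40, −0.13 to 0.12 for SLC25A35, −0.17 to 0.091 for SLC25A46, −0.079 to 0.016 for SLC25A43, −0.92 to 0.12 for SLC25A18 and −0.11 to 0.0036 for SLC25A11. The cause of the other changes was not tested. Depth limits the carriers under 1 CPM.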
